A study of Mus musculus with 16 samples.

Results

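Ventricles of neonatal mice that lacked Chrna7 were compared with wild-type ventricles after myocardial infarction. The comparison used the 4 knockout infarction samples (KO MI) and the 4 wild-type infarction samples (WT MI) of a single count table, 8 of 16 samples in the series, and covered every gene in it. The other 8 samples were ventricles of the same genotypes after sham surgery, 4 per genotype (KO sham and WT sham), and serve here as the second measurement of the genotype difference. Messenger RNA from whole ventricles, taken above and below the ligation of the coronary artery, was enriched with oligo-dT beads and sequenced. The knockout is a line of the Jackson Laboratory, and the labels name no promoter or cell type that would restrict the deletion. Strain background, sex, litter, the days of surgery and harvest, and whether each sample is a separate animal are not given in the sources used here, so p-values describe the spread among these libraries alone. The series title places the work in heart regeneration, and the comparison asks whether injured hearts differ in transcript levels when the receptor is missing.

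Chrna7 encodes the alpha 7 subunit of the nicotinic acetylcholine receptor, a ligand-gated ion channel of neurons that is also found on macrophages. In the cholinergic anti-inflammatory pathway, signals of the vagus nerve lead to acetylcholine release, and alpha 7 receptors on macrophages then restrain NF-kB, act through JAK2 and STAT3, and lower the release of cytokines such as TNF. The neonatal mouse heart can replace lost muscle for a few days after birth, a response that needs macrophages and nerves as well as dividing heart muscle cells.

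Reads assigned to genes numbered 13857909 to 14683416 per library in KO MI and 10871418 to 17223580 in WT MI. Levels are given in the standard unit CPM, gene counts scaled to a common library total after TMM normalization, and in whole ventricles fewer cells of a type and less RNA per cell cannot be told apart. Heart muscle markers were high in all 8 libraries, with Tnnt2 between 8497 and 10664 CPM. Alb of liver was 0 in 7 libraries and Myh4 of fast skeletal muscle did not exceed 0.197 CPM. Ucp1 of brown fat was at 19.5 CPM in WT MI replicate 1 and did not exceed 1.29 CPM in the others. Rag1 and Dntt of thymus were at 1.12 and 0.984 CPM in KO MI replicate 3 and did not exceed 0.257 CPM in the others. The library of KO MI replicate 4 stood apart. Its mitochondrially encoded genes took 17.35% of the gene counts against 9.79 to 12.8% in the other 7, its Myh6 level was 13345 CPM against at least 31782, its Col1a1 level was 413 CPM against at least 1209, and it held the most lung surfactant transcript, with Sftpc at 237 CPM. WT MI replicate 2 stood apart on the second principal component and held almost no lung transcripts, with Sftpc at 1.01 CPM and Scgb1a1 at 0. KO MI replicate 1 held 2.74 CPM of the 4 Y-linked genes Ddx3y, Eif2s3y, Kdm5d and Uty, against 155 to 216 CPM in the other 7. Counts and medians of gene lists that shifted most when a library was left out are given below with those values.

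**Figure D1:**
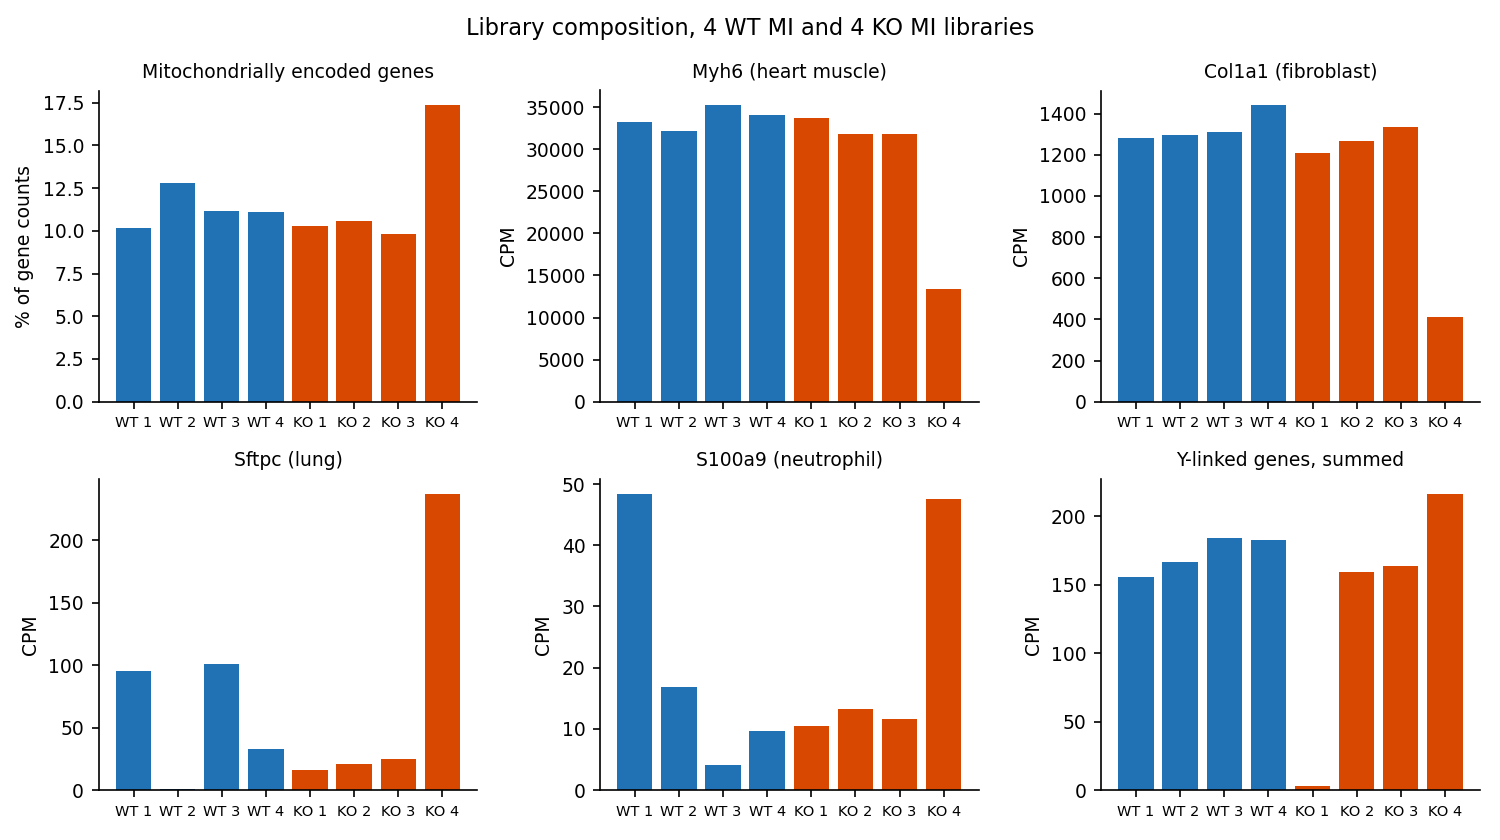
Composition of the 8 infarction libraries. Bars give the percent of gene counts in mitochondrially encoded genes and the CPM of Myh6, Col1a1, Sftpc, S100a9 and the summed Y-linked genes, blue for WT MI and orange for KO MI. KO MI replicate 4 is highest in mitochondrial share (17.35%) and Sftpc (237 CPM) and lowest in Myh6 and Col1a1, and KO MI replicate 1 has 2.74 CPM of Y-linked genes.

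The targeted gene was close to absent. Chrna7 (ENSMUSG00000030525, chromosome 7) had 2, 2, 4 and 3 reads in KO MI replicates 1 to 4 and 2, 0, 1 and 0 reads in WT MI. The level was 0.187 ± 0.0601 CPM (SD, n = 4) in KO MI and 0.064 ± 0.0797 CPM in WT MI, with a two-sided exact permutation p of 0.0857, where 70 orderings allow no p below 0.0286. Without WT MI replicate 1, whose 2 reads are the most of the wild type, the exact permutation p was 0.0286. A floor of 3 reads corresponds to 0.179 to 0.275 CPM in these libraries. Both genotypes lie at the floor, and the counts do not show which part of the gene a read came from, so Chrna7 does not check the labels.

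Very few genes separated the genotypes after infarction. In edgeR's quasi-likelihood fit of all 16 samples, 2 of 13412 tested genes passed an adjusted p of 0.05 (0.0149%), 1 higher in knockout (0.00746%) and 1 lower (0.00746%). At an unadjusted p under 0.05, 311 genes were higher (2.32%) and 327 lower (2.44%), together 638 (4.76%). Every count of list members at that level is to be read beside these shares. With 1 infarction library left out, 2.29 to 3.59% of all tested genes were higher and 2.3 to 2.91% lower. The log2 differences were centred on 0, with a lower quartile of -0.09 and an upper quartile of 0.1, and 72 genes differed by more than 1. The 95% intervals of the log2 difference had a median width of 0.54. In data simulated from the levels and spread of these libraries, the same fit recovered 62.7% of genes changed 1.5-fold, 82.1% of those changed 2-fold and 95.5% of those changed 4-fold. That simulation changed 66 or 67 genes at each fold size at once and drew every count independently. It held no library that stood apart as KO MI replicate 4 did, so these rates need not hold for the data. Arg1 (log2 3.58) and Ccl24 (3.30), described below, did not pass in edgeR. DESeq2 called 11 genes, 7 higher and 4 lower, among them the 2 of edgeR. After sham surgery, in other samples, the same fit called 2057 genes between the genotypes (15.3%), and the interaction, which asks whether the genotype difference itself differed between the surgeries, was called for 368 genes (2.74%).

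**Figure D2:**
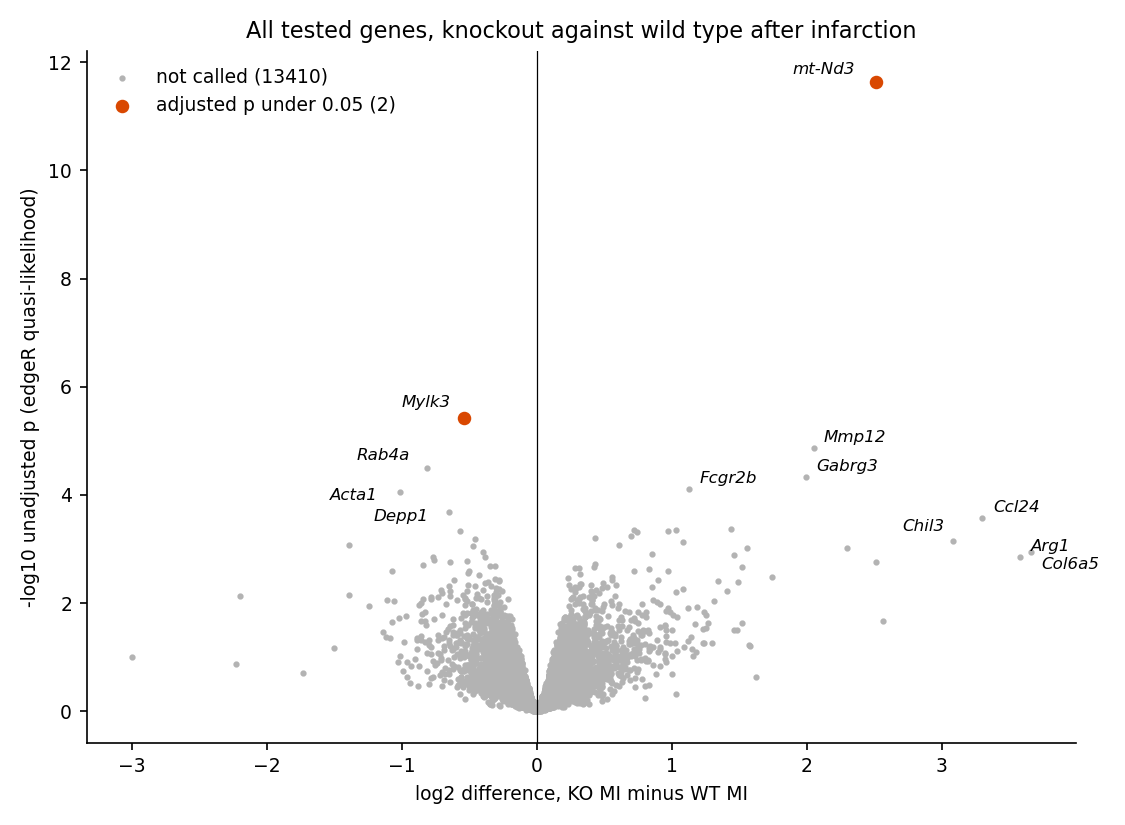
Each point is 1 of the 13412 tested genes. The x axis is the log2 difference of KO MI minus WT MI, and the y axis is minus log10 of the unadjusted p of edgeR's quasi-likelihood test. The called genes, mt-Nd3 and Mylk3, are orange, and the gene nearest to the threshold without passing it is Mmp12 (adjusted p = 0.0605).

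The gene called higher in knockout was mt-Nd3 (ENSMUSG00000064360), which is encoded in the mitochondrial genome. It supplies the ND3 subunit of respiratory complex I, the entry point of electrons from NADH. Its level was 43, 39.8, 30.4 and 39.6 CPM in KO MI replicates 1 to 4 and 8.31, 5.61, 5.95 and 7.12 CPM in WT MI. The lowest knockout library lay more than 3-fold above the highest wild-type library. The log2 difference was 2.51 ± 0.17 (SE, n = 4 per group, 95% interval 2.16 to 2.85, edgeR adjusted p = 3.14e-08), and 65 to 628 reads per library stood behind it. The same separation was present in the sham libraries, with 34.5, 37.9, 29.4 and 43.6 CPM in KO sham and 4.5, 8.18, 6.39 and 7.15 CPM in WT sham (log2 2.47, edgeR adjusted p = 5.49e-08). The difference between the differences was 0.04, with an interval of -0.46 to 0.54 (edgeR adjusted p = 0.95). The call held in all 16 fits that left out 1 library, with log2 values of 2.42 to 2.62. In KO MI, mt-Nd1 had 13692 to 32388 CPM and mt-Co1 had 40009 to 77926 CPM, far above mt-Nd3. In WT MI, mt-Atp6 was also low beside these, at 42.1 to 63.3 CPM. How reads were assigned among the mitochondrial genes was not tested.

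The other 12 protein genes of the mitochondrial genome did not pass. Among the complex I subunits, mt-Nd6, the only protein gene of the light strand, had 2643, 1997, 2390 and 1696 CPM in KO MI and 2821, 3910, 2798 and 2648 CPM in WT MI. These groups did not overlap, and the log2 difference was -0.48 ± 0.17 (edgeR adjusted p = 0.897). For mt-Nd4l, KO MI had 5.07, 5.4, 5.05 and 19 CPM and WT MI had 4.44, 3.76, 6.5 and 5.84 CPM. The high value is that of replicate 4, and the log2 difference of 0.76 was 0.03 without it. The log2 differences of mt-Nd1 (0.27), mt-Nd2 (0.09), mt-Nd4 (-0.05) and mt-Nd5 (-0.25) were small beside that of mt-Nd3. The cytochrome oxidase genes mt-Co1 (0.11), mt-Co2 (-0.16) and mt-Co3 (0.04), the ATP synthase genes mt-Atp6 (0.07) and mt-Atp8 (0.23) and cytochrome b, mt-Cytb (0.09), differed as little. Several of these directions turned without KO MI replicate 4, where mt-Nd1 was at -0.10, mt-Nd2 at -0.17, mt-Co1 at -0.17, mt-Atp6 at -0.23 and mt-Cytb at -0.16. The nuclear-encoded partners were close to level. Of 36 complex I subunit genes encoded in the nucleus none had an unadjusted p under 0.05, with log2 values of -0.12 to 0.22 and a median of 0.06. Of 18 complex I assembly factors 1, Ndufaf5, was lower at that level (log2 -0.19), and its knockout level was called lower in the sham libraries too (log2 -0.53, edgeR adjusted p = 0.000533).

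The gene called lower in knockout was Mylk3 (ENSMUSG00000031698, chromosome 8), the cardiac myosin light chain kinase. It phosphorylates the regulatory light chain of ventricular myosin and tunes the force of contraction. Its level was 427, 365, 384 and 392 CPM in KO MI and 536, 567, 645 and 535 CPM in WT MI, so the groups did not overlap. The log2 difference was -0.54 ± 0.09 (SE, n = 4 per group, 95% interval -0.72 to -0.36, edgeR adjusted p = 0.0251), a level 1.46-fold higher in wild type. In the sham libraries Mylk3 stood at 542, 557, 500 and 492 CPM in knockout and at 707, 733, 713 and 614 CPM in wild type (log2 -0.40, edgeR adjusted p = 0.00416), again without overlap. The interaction was -0.14, with an interval of -0.39 to 0.12. The call after infarction held in 9 of 16 fits that left out 1 library. It ended without WT MI replicate 1 or 3, KO MI replicate 2 or 3, KO sham replicate 1 or 3 or WT sham replicate 3, with log2 values of -0.59 to -0.47 over all 16. It also ended in a fit of the 8 infarction samples alone (log2 -0.55) and without the 3 libraries of almost no Y-linked reads (-0.59).

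Of 27 tested kinases, phosphatase subunits and light chains of myosin light chain phosphorylation, Mylk3 alone had an unadjusted p under 0.05. Without KO MI replicate 4 or WT MI replicate 2, 2 were lower at that level. Without WT MI replicate 1, 1 was lower and 2 were higher. The substrate of Mylk3 in the ventricle, Myl2, was at 8077 to 9527 CPM in KO MI and 7747 to 8663 CPM in WT MI. The log2 difference was 0.14 for the smooth muscle kinase Mylk, -0.29 for the related kinase Mylk4, 0.08 for the phosphatase targeting subunit Ppp1r12a, 0.22 for the phosphatase inhibitor Ppp1r14a and -0.21 for the kinase Prkca. The 4 values of Ppp1r14a were 27.2, 26.9, 31 and 29.5 CPM in KO MI and 27.9, 18.6, 25.9 and 26.3 CPM in WT MI.

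The start regions of Mylk3 and of the skeletal actin gene Acta1, a second muscle gene of chromosome 8 that had lower values in knockout, are shown because they are the transcripts of contraction with the smallest p. The sequences are those of RefSeq on GRCm38.p6, minus strand, 250 bases before to 50 after the start, at chr8:85380992-85381291 for the upstream of 2 Mylk3 starts and chr8:123894726-123895025 for Acta1. The 4 motifs below were searched on both strands, and matches are printed in capitals: the CArG box bound by serum response factor, the MEF2 site, AGATAA of GATA factors and TNAAGTG of Nkx2-5. No searched motif overlapped another in these windows.
Mylk3: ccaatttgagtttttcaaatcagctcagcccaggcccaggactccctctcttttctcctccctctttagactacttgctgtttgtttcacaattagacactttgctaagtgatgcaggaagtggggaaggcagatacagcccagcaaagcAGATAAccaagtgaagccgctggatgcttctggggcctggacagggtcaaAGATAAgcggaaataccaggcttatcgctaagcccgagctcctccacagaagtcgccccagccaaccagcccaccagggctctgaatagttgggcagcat
Acta1: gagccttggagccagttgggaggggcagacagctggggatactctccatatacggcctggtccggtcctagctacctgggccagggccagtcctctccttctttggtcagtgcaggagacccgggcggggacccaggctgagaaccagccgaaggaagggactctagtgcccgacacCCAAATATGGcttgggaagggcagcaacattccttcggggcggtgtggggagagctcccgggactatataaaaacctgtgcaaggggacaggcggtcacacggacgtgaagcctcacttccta
The Mylk3 window held 2 copies of AGATAA, starting at -100 and -50 from the start, and the Acta1 window held 1 CArG box, starting at -73. Of 32851 such windows, 11.2% held AGATAA, 1.63% a CArG box, 0.557% a MEF2 site and 11.5% TNAAGTG. These matches describe the letters of the windows and nothing about binding.

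Among the other genes of small p on the lower side, Rab4a, Acta1 and Depp1 did not pass in edgeR and were called by DESeq2. Rab4a (chromosome 8), a small GTPase of receptor recycling, had 4.45, 3.51, 4.4 and 3.41 CPM in KO MI and 7.4, 6.75, 7.14 and 6.52 CPM in WT MI. The log2 difference was -0.81 ± 0.15 (edgeR adjusted p = 0.106), and after sham it was called at -1.02 (edgeR adjusted p = 0.000276). Acta1, skeletal alpha actin, had 131, 158, 156 and 156 CPM in KO MI and 365, 335, 183 and 331 CPM in WT MI. Its log2 difference was -1.01 ± 0.20 (edgeR adjusted p = 0.166), it was called without WT MI replicate 3, the lowest wild-type value (edgeR adjusted p = 0.00292), and it was called after sham (log2 -1.44). Depp1, a FoxO target and regulator of autophagy, had 38.9, 31.9, 41.5 and 24.3 CPM in KO MI and 58.9, 62.7, 46.3 and 46.7 CPM in WT MI (log2 -0.65, edgeR adjusted p = 0.35), with the same direction called after sham (log2 -0.70). The 4 genes Mylk3, Rab4a, Acta1 and Depp1 thus had lower values in knockout after both surgeries. Genes of smallest p were named only from those with no overlap after infarction, so that trait is not a finding. Of all 137 genes apart downward after infarction, 16.1% were apart the same way after sham, beside 12.3% of all tested genes. For Klhdc8a and Gcgr, described below, the genotype difference itself differed between the surgeries, with interactions of -0.69 and -1.35.

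The remaining genes of this rank on the lower side had log2 differences of -0.77 to -0.38. They were Slc3a1, the heavy chain of a cystine transporter (log2 -0.57), Rab3a, a GTPase of vesicle release (-0.46), Klhdc8a, a kelch protein (-0.47), Tnnt1, slow skeletal troponin T (-0.40), the zinc finger gene Zfp276 (-0.38), Hcn4, the pacemaker channel (-0.77), Tmem138, a protein of cilia (-0.76), and Otoa, otoancorin (-0.52). Hcn4 stood at 6.71, 4.91, 5.84 and 3.13 CPM in KO MI and at 7.32, 6.75, 11.4 and 10 CPM in WT MI, so the closest libraries of the groups stood at 6.71 and 6.75 CPM. None of them passed, with edgeR adjusted p of 0.441 to 0.646. Lower values of large size were also seen for Sphkap, an anchor of protein kinase A (log2 -0.85), and Gcgr, the glucagon receptor (-0.84), both at 8.51 CPM or less in the 8 libraries.

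On the higher side the gene nearest to the threshold was Mmp12, the macrophage elastase. It had 9.38, 8.91, 5.64 and 5.43 CPM in KO MI and 1.65, 2.75, 0.183 and 2.23 CPM in WT MI, with no overlap, and no sham library exceeded 0.456 CPM. The log2 difference was 2.05 ± 0.36 (95% interval 1.31 to 2.80, edgeR adjusted p = 0.0605). It was called when replicate 2 or 3 of WT MI or replicate 4 of KO MI was left out, and with the replicate number as a block. Fcgr2b, the inhibitory Fc receptor of myeloid and B cells, had 5.48, 7.86, 9.05 and 10 CPM in KO MI and 4.69, 4.78, 2.2 and 2.92 CPM in WT MI (log2 1.13 ± 0.23, edgeR adjusted p = 0.166), and was called higher after sham (1.07, edgeR adjusted p = 0.0152).

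Other genes of small p on the higher side were of 2 kinds. Myeloid genes were Itgax, the integrin CD11c (log2 1.44), Ccl9, a chemokine for myeloid cells (1.08), Clec7a, the beta-glucan receptor dectin-1 (1.56), and Ifi30, a lysosomal thiol reductase of antigen presentation (0.43). The others were Dlk1, an imprinted fetal growth regulator (0.72), Rpp25, a subunit of ribonuclease P (0.70), Slc7a2, an arginine transporter (1.46), Tmem203, a membrane protein (0.43), Cd82, a tetraspanin (0.42), and Enpp2, the enzyme autotaxin (1.25). Dlk1 had 19.9, 25.2, 14.8 and 17 CPM in KO MI and 10.9, 11.3, 11 and 13.5 CPM in WT MI. For Slc7a2 the KO MI values were 4.25, 3.86, 14.2 and 3.13 CPM, and its log2 difference was 0.69 without replicate 3. None passed in edgeR, with adjusted p of 0.441 to 0.97.

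**Figure D3:**
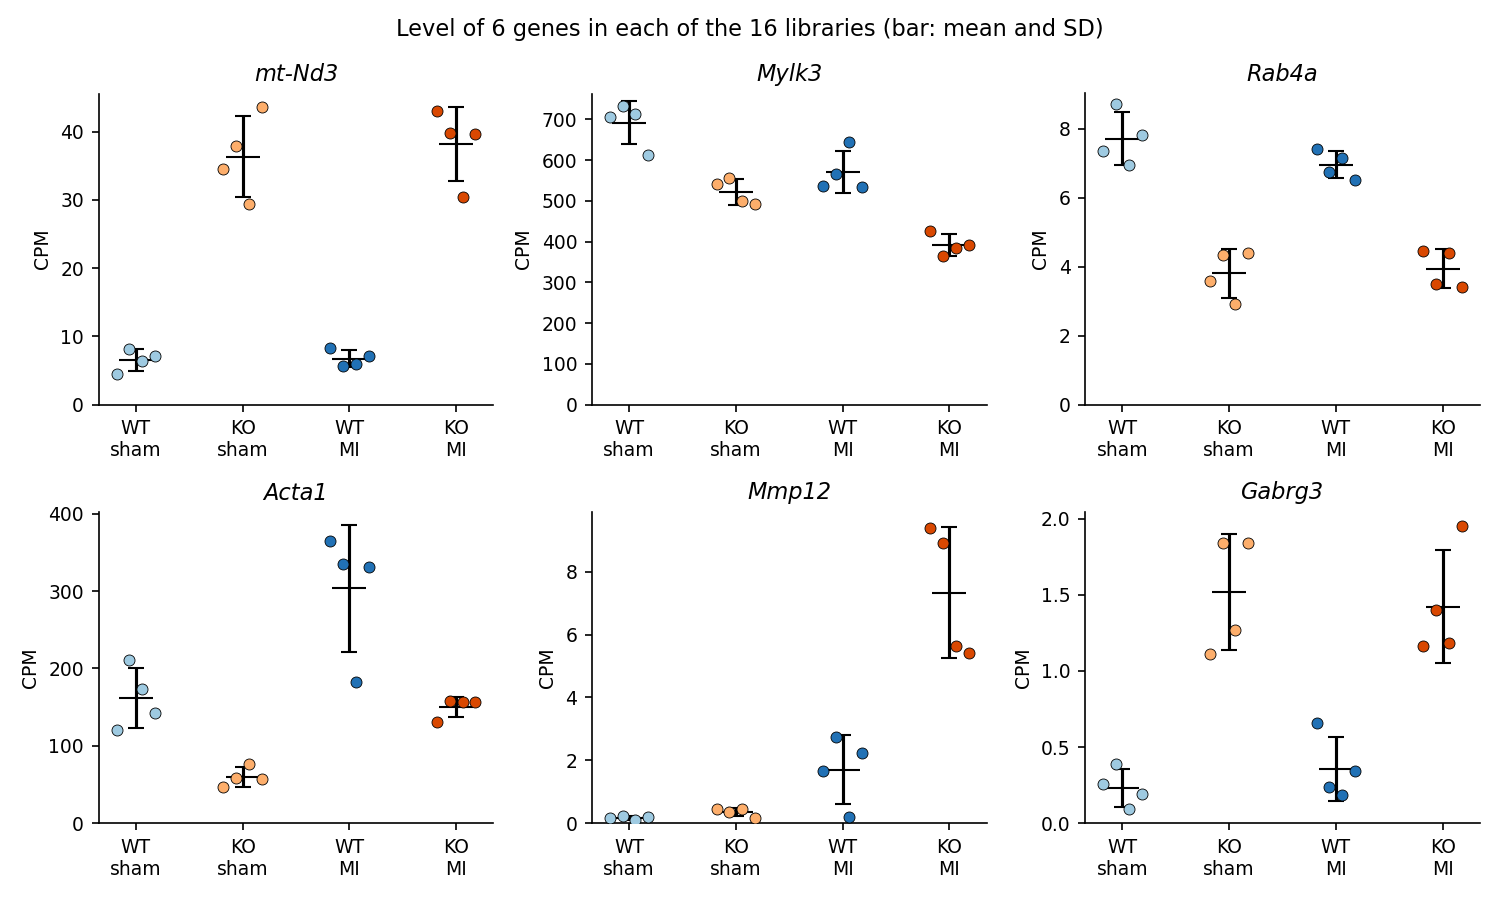
CPM of mt-Nd3, Mylk3, Rab4a, Acta1, Mmp12 and Gabrg3 in each of the 16 libraries, with the mean and SD of each group of 4. After infarction the KO and WT points of all 6 genes do not overlap, a trait that the rule for naming genes of small p required. For mt-Nd3 (2.51 after infarction, 2.47 after sham), Rab4a and Gabrg3 the knockout libraries of both surgeries lie apart from all wild-type libraries.

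Setting the surgeries side by side used sham samples that do not enter the group means after infarction. The fit estimated the spread from all 16 samples, so p-values after infarction and after sham are not independent. After infarction 146 genes had all knockout values above all wild-type values (1.09% of those tested) and 137 had all below (1.02%). Of the 146, 15 were also apart in the same direction after sham and 8 in the opposite direction, while 14% of all tested genes were apart upward after sham. Of the 137, 22 were apart in the same direction and 10 in the opposite one, while 12.3% of all tested genes were apart downward after sham. In 16 genes all 8 knockout libraries lay apart from all 8 wild-type libraries, 7 higher and 9 lower; these were listed after their values were seen. The higher genes included mt-Nd3, Gabrg3, Ivns1abp, Fam241a, Nub1 and Tspan15, and the lower ones were Rab4a, Tnnt1, Atp10a, Itgb1bp2, Aldh4a1, Atp6v0e2, Ipo13, Morn4 and Gpr37. Among them Itgb1bp2, the muscle chaperone melusin, differed by -0.35 after infarction and -0.40 after sham.

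A pair of these genes lies near Chrna7 on chromosome 7. Gabrg3, a subunit of the GABA-A receptor, had 1.16, 1.4, 1.18 and 1.95 CPM in KO MI and 0.658, 0.239, 0.183 and 0.343 CPM in WT MI (log2 1.99 ± 0.39, edgeR adjusted p = 0.125), and it was called after sham (2.61, edgeR adjusted p = 0.000464). Atp10a, a phospholipid flippase, had 3.9, 4.91, 4.86 and 3.2 CPM in KO MI and 7.9, 6.03, 5.22 and 7.12 CPM in WT MI (log2 -0.64). In the order of genes on GRCm38, 6 tested genes lie between Chrna7 and Gabrg3 and 5 between Chrna7 and Atp10a. Of the 40 tested genes nearest to Chrna7, 20 on each side, none was called by edgeR, DESeq2 called Gabrg3, and 5 had an unadjusted p under 0.05 (4.76% of all genes did), namely Gabrg3, Atp10a, Snrpn, Ndn and Mkrn3, with log2 values of -0.64 to 1.99 over the 40. A separate list of genes next to Chrna7, which held none of these 5, had 13 tested members. None of the 13 had an unadjusted p under 0.05, with log2 values of -0.17 to 0.21 and a median of 0.01. Chromosome 8 carried 7 of the 24 genes with the smallest p described above, 5 lower (Mylk3, Rab4a, Acta1, Rab3a and Zfp276) and 2 higher (Ifi30 and Slc7a2), and it carries 5.41% of the tested genes. Over all its 725 tested genes, 3.17% did not overlap between the groups, 12 upward and 11 downward, beside 2.11% of all tested genes. This count by chromosome was made after the values were seen.

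Genes of the pathway that Chrna7 belongs to differed little. Of 32 genes of cholinergic receptors and acetylcholine handling, 11 passed the filter on low counts and none had an unadjusted p under 0.05, with log2 values of -0.34 to 0.13 and a median of -0.10. The muscarinic receptor of heart muscle, Chrm2, stood at 15.5 CPM in KO MI and 15.2 in WT MI, the esterase Ache at 4.99 and 5.03, and the nicotinic receptor chaperone Tmem35a at 8.75 and 10. Ly6e, of the Ly6 family that binds nicotinic receptors (log2 -0.15), and Kcnj3, a potassium channel opened by muscarinic receptors (-0.34), had the smallest p of the list. Of 22 NF-kB subunit, inhibitor and kinase genes none reached an unadjusted p under 0.05 (median 0.01, range -0.33 to 0.29). The inhibitor Nfkbia had 39.6, 32.1, 42.8 and 39.4 CPM in KO MI and 39, 35.6, 31.9 and 32.4 CPM in WT MI, and the adaptor Traf6 differed by 0.29. Of 28 JAK-STAT3 genes 1 was lower at that level, Bcl3 (log2 -0.47), with a median of 0.01. Of 16 adrenergic receptor and cyclic AMP genes 1 was lower, the adenylyl cyclase Adcy5 (log2 -0.28).

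The cytokines of that pathway were scarce. Tnf had 1.03, 0.491, 0.459 and 0.975 CPM in KO MI and 0.329, 0.298, 0.366 and 0.515 CPM in WT MI, Il6 did not exceed 2.06 CPM and Il10 did not exceed 0.139 CPM, and none of these genes passed the filter. For Tnf 2 of the 4 knockout values lay within the wild-type range, and the other 2 above it. Il1b had 2.19, 1.47, 1.05 and 2.37 CPM in KO MI and 10.5, 2.27, 1.19 and 1.72 CPM in WT MI. Its log2 difference of -1.14 ± 0.50 was 0.01 without WT MI replicate 1. Of 21 tested cytokine and chemokine genes 4 were higher at an unadjusted p under 0.05 and 1 lower, beside 2.32% and 2.44% of all genes, with a median log2 difference of 0.18. Without KO MI replicate 4, 4 were higher and 3 lower with a median of 0.03, without WT MI replicate 1, 7 were higher and none lower, and without WT MI replicate 4 the median was -0.02. Ccl24, a chemokine for eosinophils, had 2.74, 3.09, 9.25 and 0.418 CPM in KO MI and 0.658, 0.418, 0 and 0.429 CPM in WT MI (log2 3.30, edgeR adjusted p = 0.402), and was called without KO MI replicate 4, the library with the lowest knockout value (edgeR adjusted p = 0.0138). Ccl6, a myeloid chemokine, had 7.19, 9.96, 29.7 and 11.4 CPM in KO MI and 8.31, 7.58, 7.41 and 2.06 CPM in WT MI (1.19), and the monocyte attractant Ccl2 differed by 0.47.

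Macrophage genes stood higher in KO MI in most members. None passed in edgeR, while DESeq2 called Mmp12, Arg1 and Chil3. Of 32 tested inflammatory monocyte and macrophage genes 28 had a positive log2 difference, against 51.4% of all tested genes, 11 were higher at an unadjusted p under 0.05 and none lower, and the median was 0.31. Leaving out 1 library gave 8 higher (without WT MI replicate 3 or 4) to 16 higher (without WT MI replicate 1), with medians from 0.20 without KO MI replicate 4 to 0.50 without WT MI replicate 1. After sham the median of these genes was 0.03 and 4 of them were called, beside 15.3% of all tested genes. The largest difference of the list was that of Arg1, arginase 1 of alternatively activated macrophages, so its members are not inflammatory genes alone. Arg1 had 26.6, 23.5, 152 and 4.32 CPM in KO MI and 5.43, 4.48, 6.5 and 0.944 CPM in WT MI. Its log2 difference of 3.58 ± 0.87 (95% interval 1.68 to 5.47, edgeR adjusted p = 0.585) was 2.06 without KO MI replicate 3, and KO MI replicate 4 lay within the wild-type range. Chil3, a chitinase-like secreted protein, had 16.6, 4, 27.8 and 2.37 CPM in KO MI and 2.55, 0.597, 1.74 and 1.29 CPM in WT MI (3.08). KO MI replicate 3 thus had the highest Arg1, Chil3, Ccl24 and Ccl6 of the 8 libraries.

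Trem2, the lipid-sensing receptor of macrophages, had 6.51, 13.5, 8.86 and 8.56 CPM in KO MI and 4.61, 7.52, 3.3 and 4.98 CPM in WT MI (log2 0.85 ± 0.23, edgeR adjusted p = 0.584). Spp1, osteopontin, had 31.1, 107, 21.5 and 42.2 CPM in KO MI and 34.8, 21.8, 2.47 and 26 CPM in WT MI (1.24 ± 0.58), and the groups overlapped. Lgals3, galectin 3, had 11.4, 20.6, 13.5 and 17.2 CPM in KO MI and 11.3, 8.6, 3.3 and 8.58 CPM in WT MI (0.97). WT MI replicate 3 had the lowest value of the 8 libraries for Mmp12, Spp1 and Lgals3. Without it the log2 difference was 1.72 for Mmp12, 0.88 for Spp1 and 0.73 for Lgals3.

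Of 23 resident cardiac macrophage genes 20 were positive and 6 were higher at an unadjusted p under 0.05, none lower, beside 2.32% and 2.44% of all genes. Their median was 0.23, and leaving out 1 library gave 4 to 8 higher with medians of 0.16 to 0.39. In the sham libraries the median was of similar size, 0.26, and 7 of the 23 were called, beside 15.3% of all tested genes. The general macrophage markers showed the same order with overlap. Adgre1, F4/80, had 17.2, 18.5, 25.5 and 26.7 CPM in KO MI and 13.4, 18.3, 11.3 and 9.27 CPM in WT MI (log2 0.74), and was called without WT MI replicate 2 (edgeR adjusted p = 0.0448). Csf1r, the receptor for macrophage growth factor, had 38.4, 46.2, 49.9 and 54.8 CPM in KO MI and 35.6, 48, 34.8 and 28.1 CPM in WT MI (0.36). The lysosomal Cd68 differed by 0.61 and C1qa, of the first complement component, by 0.40.

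Of 19 pan-leukocyte genes 17 were positive and 6 were higher at an unadjusted p under 0.05 (median 0.31), and 1 was higher without KO MI replicate 4, with a median of 0.11. Without WT MI replicate 3 or 4, 2 were higher, and 12 were without KO MI replicate 1 and 11 without WT MI replicate 1. Itgb2, the beta 2 integrin chain of leukocytes, had 10.1, 14.6, 21.6 and 19.2 CPM in KO MI and 10.7, 9.19, 5.58 and 6.35 CPM in WT MI (log2 1.03), and Cd52, a surface glycoprotein, differed by 0.73. Of 12 MHC class II and antigen presentation genes 5 were higher at that level, with a median of 0.45 that was 0.19 without KO MI replicate 4, when 3 were higher, and 8 were higher without WT MI replicate 1. The protease Ctss, which cleaves the invariant chain, had 28.4, 54.4, 30.3 and 66.1 CPM in KO MI and 31.4, 26.6, 12.4 and 25.1 CPM in WT MI (0.90), and the class II chain H2-Ab1 had 6.44, 8, 7.87 and 15.9 CPM against 9.21, 2.57, 5.49 and 5.24 CPM. The log2 difference of H2-Ab1 was 0.78 and was 0.42 without KO MI replicate 4. Of 16 complement genes 5 were higher (median 0.34, and 0.29 with 6 higher without that library), led by the protease C1s1 (0.61) and the receptor C3ar1 (0.56), which were both called higher in knockout after sham. C3, the central complement protein, had 68.7, 271, 285 and 50.1 CPM in KO MI and 86.3, 72.1, 120 and 19.7 CPM in WT MI, with overlap.

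Neutrophil genes followed single libraries of each genotype. Their summed level was 47.7, 53.5, 55.1 and 143 CPM in KO MI and 142, 67.8, 31.6 and 42.1 CPM in WT MI, and the median log2 difference of 12 genes was 0.12, and -0.47 without KO MI replicate 4. S100a9 was at 47.5 CPM in that library and at 48.4 CPM in WT MI replicate 1, while the remaining 6 libraries lay between 4.12 and 16.9 CPM. Lung epithelium genes moved with the same knockout library. Their summed level was 50.1, 69.4, 66.9 and 366 CPM in KO MI and 163, 4.89, 182 and 76.4 CPM in WT MI, and the median log2 difference of 9 genes was 0.52, and -0.41 without that library. T, NK and B lymphocyte genes were scarce, with Cd3e between 0.0597 and 0.549 CPM. Whether RNA of other tissues had a part in the macrophage values was not tested beyond leaving out these libraries.

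**Figure D4:**
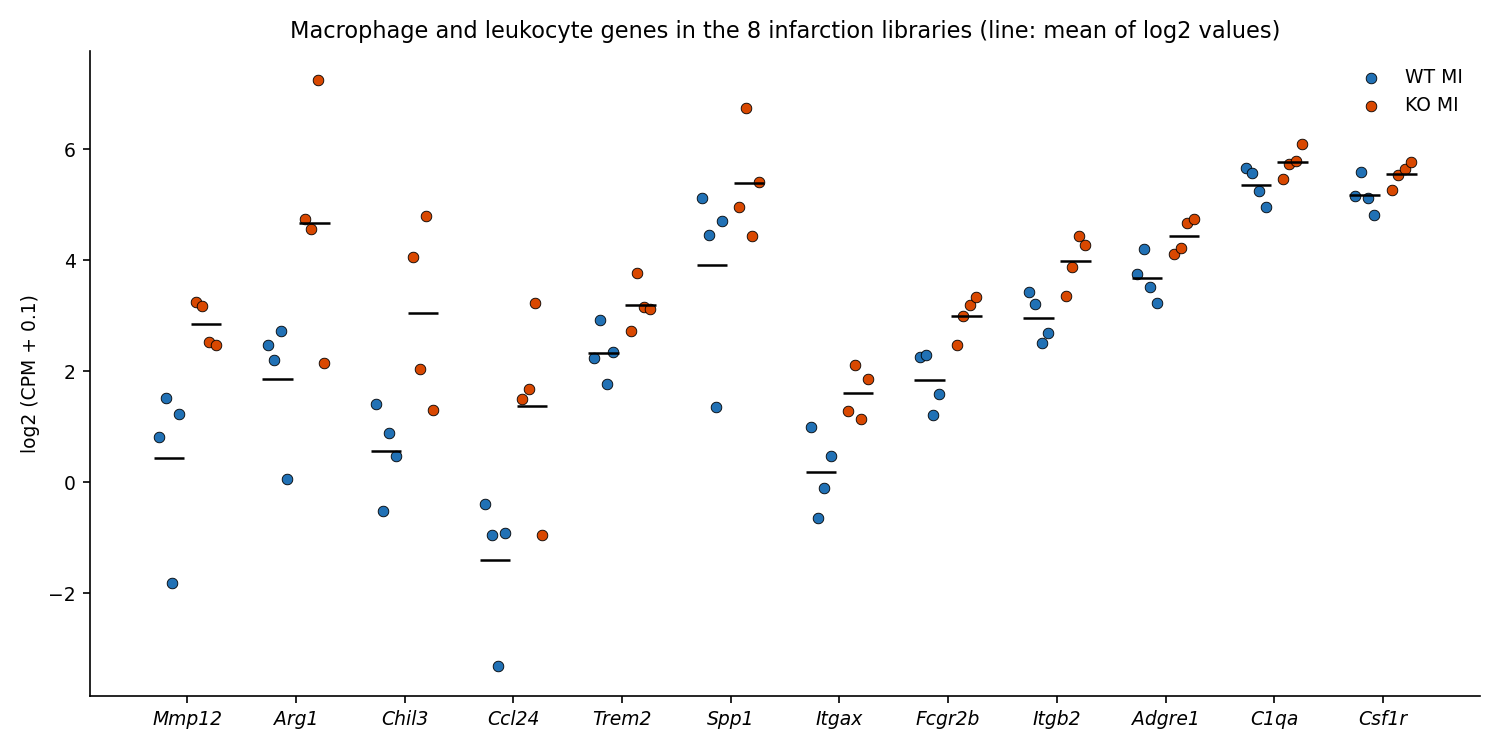
The y axis is log2 of CPM plus 0.1 for 12 macrophage and leukocyte genes in the 4 WT MI (blue) and 4 KO MI (orange) libraries, and the line is the mean of the log2 values. The groups of Mmp12, Itgax and Fcgr2b do not overlap, those of the other genes do, and no gene shown passed in edgeR (Mmp12, adjusted p = 0.0605), while DESeq2 called Mmp12, Arg1, Chil3, Ccl24 and Fcgr2b.

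Differences in heart muscle genes were small and mostly negative. Of 23 tested fetal and stress muscle genes 19 were negative and 6 were lower at an unadjusted p under 0.05, none higher (median -0.30). Leaving out 1 library gave 4 to 8 lower and medians from -0.44 without KO MI replicate 2 to -0.20 without WT MI replicate 3. Besides Acta1 and Tnnt1, Xirp2, an actin-binding protein of cell junctions, had 127, 225, 154 and 180 CPM in KO MI and 251, 215, 184 and 380 CPM in WT MI (log2 -0.59). The natriuretic peptides, which report wall stress, showed no genotype order. Nppa had 412, 1819, 644 and 2186 CPM in KO MI and 1098, 1066, 1023 and 1796 CPM in WT MI (0.02 ± 0.58), and Nppb differed by -0.20 ± 0.27. The atrial marker Bmp10 had 0.343, 11, 1.31 and 47.5 CPM in KO MI, ranking the replicates as Nppa did. In WT MI Bmp10 had 9.3, 3.04, 0.915 and 6.27 CPM, with another ranking. Whether atrium in the samples had a part in the Nppa values was not tested. Of 28 sarcomere genes 4 were lower (median -0.13), and 1 was without KO MI replicate 4, with a median of -0.06, 1 without WT MI replicate 2, 2 without WT MI replicate 3 or 4 and 8 without KO MI replicate 2. The cardiac actin Actc1 had 12876, 13448, 12795 and 9190 CPM in KO MI and 12505, 17340, 15309 and 13617 CPM in WT MI, and the Z-disc genes Ldb3 and Mypn both differed by -0.28.

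Of 29 calcium handling and ion channel genes 4 were lower at an unadjusted p under 0.05 and none higher (median -0.14), and leaving out 1 library gave 2 lower (without KO MI replicate 2 or WT MI replicate 3) to 8 lower (without KO MI replicate 1). Beside Hcn4 these were Cacna1h, a T-type calcium channel (log2 -0.40, and -0.21 without KO MI replicate 4), Hcn2, the second pacemaker channel of the list (-0.34), and Jph2, which ties the calcium store to the surface membrane. Jph2 had 399, 401, 369 and 396 CPM in KO MI and 420, 450, 470 and 430 CPM in WT MI (-0.18), with no overlap. The atrial genes Myl7, Myl4 and Sln, which in ventricle samples follow how much atrium was included, ranged from 88.8 to 298 CPM for Myl7 in KO MI and from 130 to 487 CPM in WT MI. Hcn4 also belongs to the atrial and conduction list, where 15 of 19 genes were negative with a median of -0.10. That median was -0.22 without KO MI replicate 1 or 4, -0.21 without WT MI replicate 2, -0.20 without KO MI replicate 2 and -0.02 without WT MI replicate 3.

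Matrix genes did not move together. Of 27 collagen chains 24 were negative (median -0.16, and -0.04 without KO MI replicate 4), 2 were lower at an unadjusted p under 0.05 (4 without KO MI replicate 3) and 1 was higher. The higher chain was Col6a5, with 11.2, 12.7, 54.3 and 1.67 CPM in KO MI and 0.74, 1.43, 3.66 and 0.601 CPM in WT MI (log2 3.66, and 2.43 without KO MI replicate 3). Lower were Col15a1, a basement membrane collagen (-0.43), and Col8a1 (-0.70), whose WT MI values were 7.49, 7.1, 4.76 and 15.8 CPM. Of 25 activated fibroblast genes 1 was higher, the adhesion protein Tgfbi (0.36), and 2 were lower, the matricellular genes Ccn1 (-0.53) and Ccn2 (-0.52), which are also targets of YAP. Ccn1 had 60.8, 43, 50.2 and 26.6 CPM in KO MI and 55.5, 58.8, 84.2 and 62.1 CPM in WT MI, and its log2 difference was -0.34 without KO MI replicate 4. Of 20 quiescent fibroblast genes 4 were lower (2 without KO MI replicate 3 or WT MI replicate 1 or 2), with the elastic fibre protein Mfap4 first (-0.34). Of 28 TGF-beta and BMP genes 2 were lower, beside 2.44% of all genes, the ligand Tgfb3 (-0.32) and the inhibitor Smad7 (-0.37). Of 28 matrix proteases and inhibitors Mmp12 and Plaur, the urokinase receptor (0.42), were higher at that level, beside 2.32% of all genes.

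Epicardial and mesothelial genes, of the cell layer that covers the heart, were positive in 18 of 19 members (median log2 0.38), with 2 higher and 1 lower at an unadjusted p under 0.05. Without KO MI replicate 2 the median was 0.06 and none was higher, and none was higher without KO MI replicate 3 or WT MI replicate 4 either. Without KO MI replicate 4, 6 were higher with a median of 0.48, and without KO MI replicate 1, 9 were higher with a median of 0.56. Upk1b, a uroplakin, had 1.1, 6.88, 5.12 and 1.67 CPM in KO MI and 1.07, 2.09, 2.29 and 1.03 CPM in WT MI (1.17), and Bnc1, a transcription factor, differed by 1.12. Aldh1a2, which makes retinoic acid, was lower (-0.20). KO MI replicates 2 and 3 carried the high values, with Msln at 23.4 and 18.5 CPM and at 4.52 CPM in each of replicates 1 and 4. After sham the list had a median of -2.14, and the interaction was called for 15 of its 19 genes, beside 2.74% of all genes. No endothelial gene of 27 and no lymphatic gene of 9 had an unadjusted p under 0.05 after infarction.

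Proliferation genes showed small differences, whose size or direction depended on single libraries. Mki67 had 189, 276, 203 and 204 CPM in KO MI and 208, 278, 176 and 247 CPM in WT MI (log2 -0.06 ± 0.13, 95% interval -0.32 to 0.20). The log2 difference was -0.08 ± 0.16 for the mitotic cyclin Ccnb1, -0.03 ± 0.17 for the kinase Aurkb and -0.11 ± 0.14 for anillin, Anln, of the cleavage furrow. Of 34 G1/S genes none had an unadjusted p under 0.05 (median 0.04), the replication factor Gins2 (0.22) and the nucleotide reductase Rrm2 (-0.22) having the smallest p. Without WT MI replicate 2, 9 of these genes were higher at that level, beside 2.64% of all genes in that fit, with a median of 0.15. The G1/S median was -0.02 without WT MI replicate 3. Of 30 G2/M genes 25 were negative and 1 was lower, Bora, an activator of mitotic kinases (-0.41), and the centromere histone Cenpa was at -0.22. The G2/M median of -0.08 was 0.10 without WT MI replicate 2, with 2 higher and none lower, and -0.17 without KO MI replicate 2, with 4 lower, or WT MI replicate 3, with 3 lower. Without KO MI replicate 1 the G2/M median was 0.01. WT MI replicate 2 had the highest Aurkb, Ccnb1 and Anln of the 8 libraries. Of 26 Hippo pathway genes and YAP targets 2 were lower, the targets Ccn1 and Ccn2 given above, and 1 was higher, the YAP partner Tead2 (0.24), with 41.3, 42.5, 40 and 40.2 CPM in KO MI and 34.3, 34.9, 38.2 and 31.4 CPM in WT MI and no overlap. Of 22 imprinted and fetal growth genes 19 were positive and 3 were higher, Dlk1, Igf2 (0.34, and 0.21 without KO MI replicate 4) and Ndn (0.31). Without WT MI replicate 1 the list had 1 higher gene and without WT MI replicate 3 it had 5.

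In metabolism, the uncoupling protein Ucp3 differed by a log2 value of 0.40 and Oxct1, which starts ketone use, by -0.28. Of 33 fatty acid oxidation and ketone genes 5 were higher at an unadjusted p under 0.05 and 1 lower, and leaving out 1 library gave 2 higher (without KO MI replicate 1 or WT MI replicate 1 or 4) to 7 higher (without WT MI replicate 2). Of 35 glycolysis and hypoxia genes 29 were negative and 3 were lower (median -0.09, and 6 lower without KO MI replicate 2), among them the oxygen sensor Egln3 (-0.34) and the insulin-responsive glucose carrier Slc2a4 (-0.27). Of 34 regulators of mitochondrial gene expression 2 were higher and 1 lower, beside 2.32% and 2.44% of all genes. Mterf4, a factor of mitochondrial ribosome assembly, was at 0.31. Among unfolded protein and amino acid stress genes 4 of 32 were higher, the serine enzyme Phgdh (1.08), the folate enzyme Mthfd2 (0.81), asparagine synthetase Asns (0.96) and the glutathione-degrading Chac1 (1.24). Without KO MI replicate 4, 1 was higher, and without KO MI replicate 1, 8 were. Phgdh had 7.81, 30.6, 10.5 and 28.1 CPM in KO MI and 8.39, 10.8, 8.15 and 8.93 CPM in WT MI, so that replicates 2 and 4 alone stood above wild type by over 2-fold. All 43 ribosomal protein genes were positive (median 0.16, and 0.06 without KO MI replicate 4), with Rps7 at 473, 486, 489 and 643 CPM in KO MI and 475, 416, 454 and 433 CPM in WT MI and Rpl27 at 0.25. The high Rps7 value is again that of replicate 4. At an unadjusted p under 0.05, 3 ribosomal protein genes were higher. That count was 0 without KO MI replicate 4 or WT MI replicate 4 and 11 without WT MI replicate 1. After sham the median of the 43 genes was -0.32 and 15 were called, beside 15.3% of all tested genes.

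Red cell and handling-related genes had mostly lower values in KO MI. All 13 tested erythroid genes were negative (median log2 -0.37) and 6 were lower at an unadjusted p under 0.05. The beta globin gene Hbb-bs had 609, 516, 853 and 702 CPM in KO MI and 1112, 733, 866 and 1025 CPM in WT MI (-0.48), Hba-a1 differed by -0.45, and Alas2, the first enzyme of erythroid haem synthesis, by -0.37. KO MI replicate 3 had the highest knockout value of all 3 genes. Of 25 immediate early and handling stress genes 22 were negative, 5 were lower and 1, the AP-1 subunit Fosl1 (0.49), was higher (median -0.23). Fos had 9.45, 4.56, 6.89 and 4.18 CPM in KO MI and 10.2, 7.04, 25.4 and 10.8 CPM in WT MI (-1.07, and -0.56 without WT MI replicate 3), and Ier3 differed by -0.30. Of the erythroid genes 1 was lower without KO MI replicate 1, 3 were without KO MI replicate 2, and leaving out KO MI replicate 3 gave 9. Of the immediate early genes 1 was lower without KO MI replicate 4 or WT MI replicate 3, 2 were without KO MI replicate 2, and leaving out KO MI replicate 3 gave 8.

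**Figure D5:**
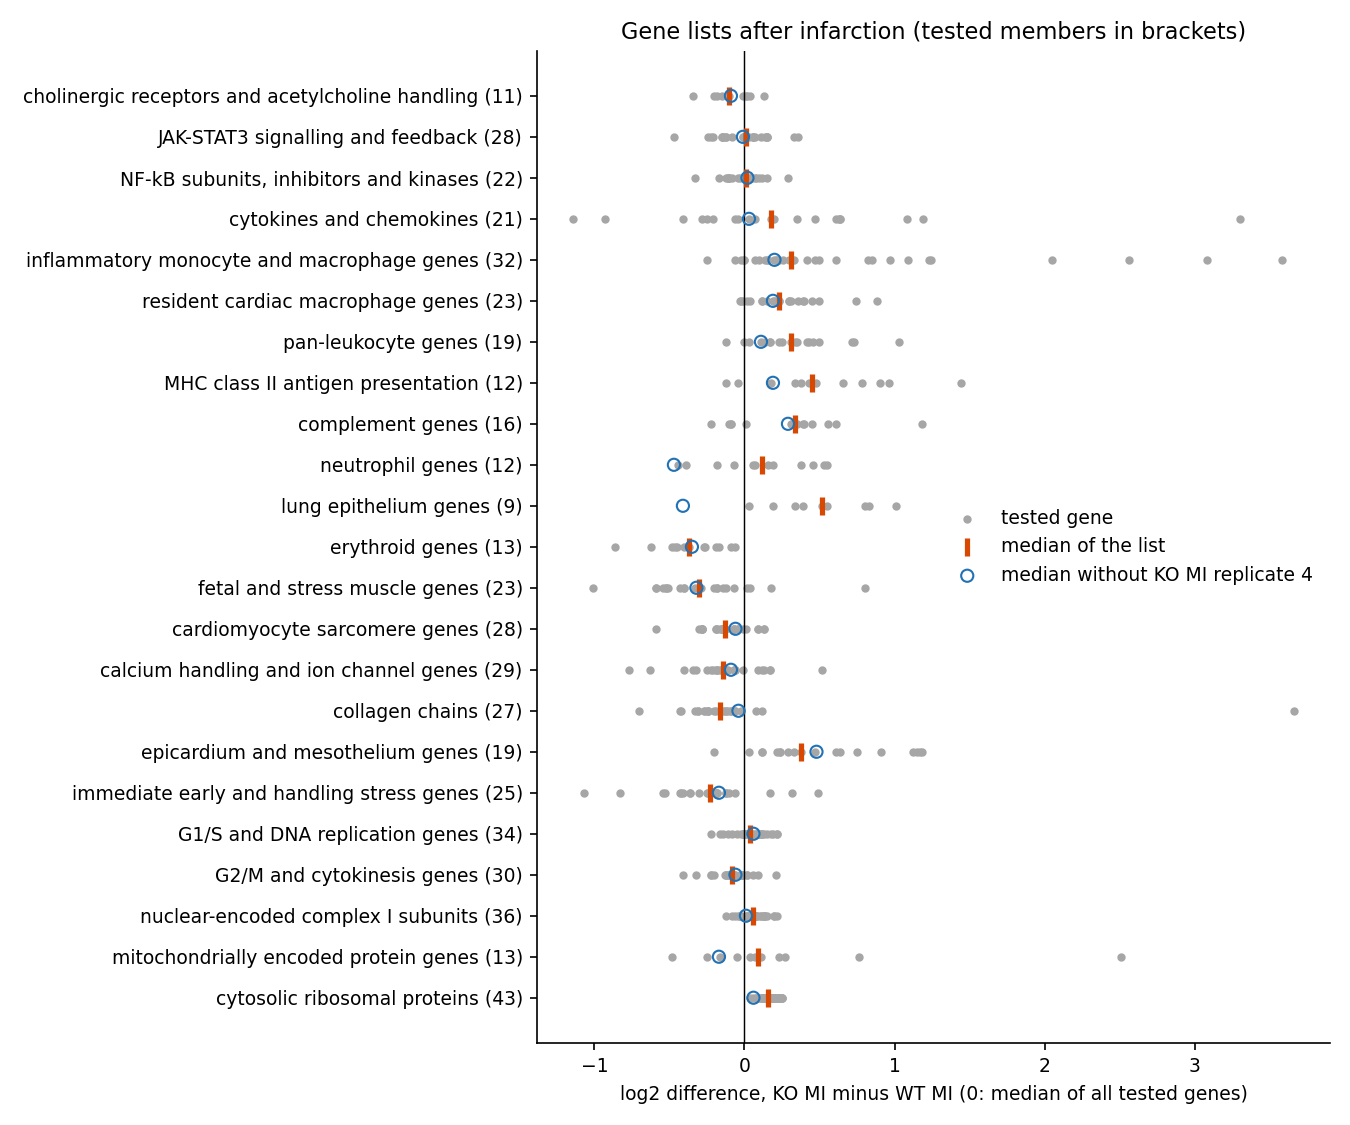
Grey points are the log2 differences of KO MI minus WT MI of the tested genes in each list, orange bars are the median of the list and open blue circles the median without KO MI replicate 4. Over all genes the median is 0. The lung epithelium median goes from 0.52 to -0.41 and the neutrophil median from 0.12 to -0.47 without that library, while those of the erythroid (-0.37) and fetal muscle (-0.30) lists stay near their values.

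For some of the named genes the genotype difference itself depended on the surgery. Plaur, which was higher in KO MI at 0.42 without passing, was called lower in knockout after sham (log2 -1.71), and its interaction was 2.12 (edgeR adjusted p = 0.000192). It had 7.81, 8.42, 9.97 and 9.75 CPM in KO MI and 7.98, 7.7, 6.32 and 4.81 CPM in WT MI, against 2.73 to 4.48 CPM in KO sham and 9.77 to 15.1 CPM in WT sham. For Dlk1 the difference was 0.72 after infarction and -0.70 after sham (interaction 1.42, edgeR adjusted p = 0.0039), and for Tead2 it was 0.24 and -0.40 (0.64, edgeR adjusted p = 0.00383). For the erythroid genes Hbb-bs, Hba-a1 and Alas2 the knockout values were lower after both surgeries, by more after sham (-1.64, -1.93 and -1.48). For Xirp2, Hcn2 and Col8a1 the knockout value was lower after infarction and higher after sham, with interactions of -1.21, -0.94 and -1.55.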

How the data were processed

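Ventricular RNA-seq of 16 mouse samples was used, 8 of them after infarction. The authors deposited raw HTSeq counts per Ensembl gene, per the file headers and values; the submitters' processing notes name build GRCm39, HISAT2 2.2.1, cutadapt 3.4, bcl2fastq 2.17, HTSeq 0.13.5, FastQC and DESeq2. The strand setting and annotation release are not given in the sources used here, so reads of genes that overlap on opposite strands cannot be told apart. Of 22468 genes, 22362 had a symbol and 4354 had no count, and 5 lines of no gene were left out; reads in no feature were 23.74 to 28.25% of the reads counted per infarction library. Symbols came from GENCODE vM21 and RefSeq of GRCm38, so no gene coordinates of that build are given beyond the RefSeq start regions.

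Counts were fitted in R 4.3.3 with edgeR 4.0.16 (TMM, filterByExpr on the 4 groups, robust quasi-likelihood, a mean per group over all 16 samples, 12 residual degrees of freedom). Tests were two-sided, with Benjamini-Hochberg adjustment over 13412 genes and a threshold of 0.05, and intervals cover 95%. Chrna7 was compared with an exact permutation test. Gene lists (57 lists, 1264 of 1271 symbols found, 1112 tested) are described by counts and medians without a set test. The members and lists were chosen with earlier results of these data known. Genes were named by a rule: those called; the 12 of smallest p each way and the 6 of largest difference each way, with at least 2 CPM and no overlap between groups; the 2 to 4 members of smallest p per described list; and set genes. Other genes were chosen after their values were seen. The fit was tested on simulated data of 13295 genes with known fold changes, where it made 4 false calls. Alternatives were DESeq2 1.42.0, limma 3.58.1 voom with quality weights, upper quartile or RLE scaling, filters at 0 or a mean of 50 counts, omission of haemoglobin and mitochondrial genes, a replicate block, a Y-linked index, omission of the libraries whose Y-linked level was under 5 CPM, the 8 infarction samples alone, leaving out each library, and, added after seeing the data, leaving out KO MI replicate 4 with WT MI replicate 2. Some results are not reported here.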

Additional observations from a re-analysis of the deposited data

Results flagged for a closer look

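Single libraries lay far from the other 3 of their group in 25 of 248 checks of a named gene in KO MI or WT MI, by Dixon's 95% critical value for the gap to the nearest library over the range. Chance flags about 1 in 20 independent groups, but these genes were selected and share libraries, so the share of checks was not tested against it. KO MI replicate 4 was the distant library for mt-Nd1 (32388 CPM), mt-Nd4 (10416), mt-Nd4l (19), mt-Co1 (77926), mt-Co2 (322), mt-Cytb (32128), Rps7 (643), Ndufb4 (210), H2-Ab1 (15.9) and Actc1 (9190). KO MI replicate 3 was distant for Arg1 (152 CPM), Slc7a2 (14.2), Hba-a1 (678) and Jph2 (369), KO MI replicate 2 for Mki67 (276) and KO MI replicate 1 for Acta1 (131). In WT MI, replicate 1 was distant for Il1b (10.5 CPM) and mt-Nd5 (8087), replicate 2 for mt-Nd4 (8930), mt-Nd6 (3910) and mt-Atp6 (63.3), replicate 3 for Kcnj3 (16.7) and replicate 4 for Dlk1 (13.5), Nppa (1796) and Ccl6 (2.06).

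The genotype difference of 17 named genes differed between the surgeries by the interaction test of edgeR, which called 2.74% of all tested genes. The named genes were partly chosen by their p or after their values were seen, so this count is not a rate. The log2 difference after infarction minus that after sham was positive for Plaur (2.12), Dlk1 (1.42), Cd82 (0.78), Tead2 (0.64), Ifi30 (0.61), Upk1b (4.24), Bnc1 (4.30), C3 (4.26), Hbb-bs (1.16), Hba-a1 (1.48) and Alas2 (1.11), the last 3 genes having lower knockout values after both surgeries. It was negative for Xirp2 (-1.21), Hcn2 (-0.94), Col8a1 (-1.55), mt-Nd5 (-0.86), Klhdc8a (-0.69) and Gcgr (-1.35).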

How the results depend on the processing

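The number of genes called after infarction was 2 with edgeR and 11 with DESeq2, which added Acta1, Arg1, Ccl24, Chil3, Depp1, Fcgr2b, Gabrg3, Mmp12 and Rab4a, each with the direction it had in edgeR. It was 1 without haemoglobin and mitochondrially encoded genes (mt-Nd3 is then not measured), 1 without the libraries with almost no Y-linked reads, 1 in the 8 infarction samples alone, and 8 without KO MI replicate 4 and WT MI replicate 2, namely Adgre1, Btaf1, Ccl24, F7, Mmp12, Mylk3, Rpp25 and mt-Nd3. Leaving out 1 library gave 1 to 4 genes, mt-Nd3 always among them. The cause of these changes was not tested. Same-numbered samples deviated with correlations of -0.096, 0.157, 0.07 and 0.124, and the other pairs with -0.122 to 0.197. These values do not settle whether the number marks a pair. The fit with the replicate block called 3 genes, adding Mmp12, with Aurkb at 0.00. The Chrna7 difference was 0.098 to 0.157 CPM when 1 library was left out, with an exact permutation p of 0.0286 without WT MI replicate 1.

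The genes whose direction turned were close to 0 or rested on a library. Voom with quality weights gave log2 values of -0.72 for Nppa, 0.16 for Aurkb, -0.03 for mt-Nd1, -0.12 for mt-Nd2 and mt-Atp6, -0.07 for mt-Co1 and -0.11 for mt-Cytb. Without the libraries of almost no Y-linked reads the values were 0.03 for Nppb and Aurkb and 0.04 for Ccnb1. Without KO MI replicate 4 and WT MI replicate 2 they were -0.45 for Nppa, 0.08 for Mki67, 0.04 for Ccnb1 and Anln, 0.26 for Aurkb, -0.02 for mt-Nd1, -0.06 for mt-Nd2, mt-Co1 and mt-Atp6, and -0.11 for mt-Nd4l and mt-Cytb. Leaving out 1 library gave -1.43 to 0.01 for Il1b, -0.38 to 0.31 for Nppa, -0.40 to 0.03 for Nppb, -0.19 to 0.05 for Mki67, -0.18 to 0.13 for Ccnb1, -0.17 to 0.23 for Aurkb, -0.26 to 0.02 for Anln, -0.10 to 0.41 for mt-Nd1, -0.17 to 0.21 for mt-Nd2, -0.24 to 0.02 for mt-Nd4, -0.17 to 0.23 for mt-Co1, -0.05 to 0.09 for mt-Co3, -0.23 to 0.24 for mt-Atp6, -0.01 to 0.45 for mt-Atp8 and -0.16 to 0.18 for mt-Cytb. Depth limits genes near 3 reads per library (0.179 to 0.275 CPM), such as Chrna7 and Il10, where a difference was not detectable.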
